A study of Mus musculus with 22 samples.

Results

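Old mice labelled P301L, which by the line's name carry the mutant tau transgene without its transactivator, were compared with old wild-type (WT) mice in single-cell RNA counts from the hippocampus. The comparison took 8 of the 22 mice in the series: 3 P301L animals aged 48, 41 and 41 weeks and 5 WT animals aged 40, 39, 39, 35 and 32 weeks. A cell was a member when its library was one of these 8 and it held 300 or more counts, which gave 7972 of the 27198 cells kept in the whole series (3249 P301L and 4723 WT). Genes had to be counted in both groups, which 12614 of 13685 genes were.

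The series used Drop-seq, a droplet method in which each bead marks the RNA of a cell with a barcode and each RNA molecule with a molecular identifier. It covers rTg4510 mice, which carry both transgenes, at old and young ages, WT mice at both ages, and old mice with either transgene alone. All animals carry the strain label Fvb/B6 and are called littermates in the design text. The 3 old rTta animals, all 33 weeks old and named for the transactivator, are given here only as a further reference. The labels name neither the promoter of either transgene nor the animals' sex. All P301L animals were older than all WT and all rTta animals, so age and genotype cannot be told apart in either comparison.

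Tau is a microtubule-binding protein of axons, and P301L is a mutation that causes inherited frontotemporal dementia. In a split transgene system the responder stays largely silent until a transactivator protein binds its promoter, so the responder alone serves as a control for the double transgenic animals. Microglia are the resident macrophages of the brain. Their inflammatory genes are driven by NF-kB, a transcription factor held in the cytoplasm by the inhibitor encoded by Nfkbia until a stimulus releases it, and immediate early genes such as Fos respond within minutes to many stimuli.

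Total counts were 870857 to 1563671 in the 3 P301L libraries and 780831 to 2342345 in the 5 WT libraries, and the median count per kept cell was 638 to 729.5 in P301L, 817 to 1555 in WT and 722.5 to 814.5 in rTta. The count table joins 2 parts: 801 genes were counted in every P301L and rTta animal and at 0 in the other 16, and 270 genes the other way round. P301L lies in one part and WT in the other, so the genotype and the part of the table cannot be told apart, and rTta lies in the same part as P301L. Between any pair of the 8 libraries at most 1 cell barcode was shared, but P301L replicate 3 and rTta replicate 3 shared 176, while the other pairs of the 22 libraries shared at most 2. These were 21.7% of the 812 cells of P301L replicate 3 and 11.9% of the 1474 cells of rTta replicate 3. Of the 176 barcodes 172 fell in the same class in both libraries, and the median correlation of the 2 profiles of a barcode (log counts over genes) was 0.83, against 0.16 between different barcodes. The same cells thus appear to be counted in both libraries, and to which animal they belong was not tested. Results are given with all cells, and then, where a call or a count changes or the result rests on either library, with these cells left out of both. No cell types came with the counts, so clusters were named from marker genes, which left 2985 cells unnamed, and in 3399 named cells the markers of a different class summed to more counts than those of the assigned class. A gene is called changed below where the edgeR quasi-likelihood test across all genes gave an adjusted p under 0.05. Levels are CPM, the counts scaled to a common total of the class or animal, animals are listed in replicate order, and fold changes are log2 of P301L over WT.

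The tau readouts did not separate the groups. Mapt (chr11:104231390-104332090, GRCm38), the mouse tau gene, was at 572, 507 and 494 CPM in the whole P301L animals and at 590, 587, 641, 340 and 456 CPM in WT. The P301L values lay inside the WT range, with a log2 fold change of 0.01 (SE 0.24, edgeR adjusted p = 1). In excitatory neurons Mapt was at 610, 549 and 451 CPM in P301L and 575, 585, 513, 447 and 504 CPM in WT, a log2 fold change of 0.05 (SE 0.18, edgeR adjusted p = 0.97). The human transgene has no feature of its own under that name among the genes used, so its transcript was not measured separately. Prnp, the prion protein gene whose promoter is used in many brain transgenes, was at 835, 1051 and 992 CPM in whole P301L animals against 804, 1254, 1513, 1015 and 1017 CPM in WT (log2 fold change -0.22, SE 0.23, edgeR adjusted p = 0.70).

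Genes at the known transgene insertion sites of the line were read for the same reason. Fgf14 (chr14:123977907-124677127), which encodes a sodium channel partner and lies at the tau insertion, was at 8.14, 7.05 and 16.6 CPM in P301L, 11.9, 17.6, 19.8, 15.8 and 23.6 CPM in WT and 24.0, 20.8 and 18.5 CPM in rTta. In Fgf14, 2 of the 3 P301L animals lay below all WT animals and the third lay within them, with a log2 fold change of -0.81 (SE 0.35) that was not called (edgeR adjusted p = 0.27). With the shared cells left out the third animal was at 6.02 CPM, so that all 3 lay below WT, and the change was not called either (-1.27, edgeR adjusted p = 0.083). Wdr60 (chr12:116206262-116263022), a dynein gene at the transactivator insertion, was at 141, 84.6 and 59.5 CPM in P301L and 131, 154, 91.2, 85.5 and 177 CPM in WT, and the groups overlapped (-0.41, SE 0.27, edgeR adjusted p = 0.50). Its rTta level was lower, at 45.1, 45.3 and 30.4 CPM, and that comparison with WT was called (log2 fold change -1.66, edgeR adjusted p = 0.012; 0.0070 without the shared cells and 0.14 without rTta replicate 3). The neighbouring genes Esyt2 (0.25, edgeR adjusted p = 0.61) and Ptprn2 (-0.58, edgeR adjusted p = 0.42) were not called between P301L and WT.

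The share of cells in 5 of 14 classes did not overlap between P301L and WT. Neurons made up less of the kept P301L cells and microglia, endothelial cells and mural cells more. The cut at 300 counts kept 1082, 1355 and 812 of 1600 barcodes each in P301L. In WT it kept 1593 of 1600, 499 of 500, 499 of 500, 1200 of 1200 and 932 of 1200. The median count per kept excitatory neuron was 443 to 1207.5 in P301L animals and 753.5 to 1765 in WT. Barcodes under the cut were not clustered, so their part in the shares was not tested. Excitatory neurons were 17.7%, 15.65% and 18.6% of kept cells in P301L and 28.2%, 37.3%, 27.1%, 29.1% and 31.1% in WT, that is 17.3% ± 1.52 (SD, n = 3) against 30.6% ± 4.04 (SD, n = 5). Interneurons, the local inhibitory neurons, were 1.82% ± 1.23 of P301L cells (SD, n = 3) and 4.31% ± 1.27 of WT cells (SD, n = 5), with the highest P301L animal at 3.24% just under the lowest WT animal at 3.41%.

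Microglia were 12.85%, 18.6% and 15.9% of P301L cells and 10.9%, 5.01%, 5.41%, 8.08% and 7.62% of WT cells. Every P301L animal lay above every WT animal, and the means were 15.8% ± 2.88 (SD, n = 3) and 7.40% ± 2.35 (SD, n = 5). Endothelial cells, which line the vessels, were 12.2% ± 2.06 (SD, n = 3) against 5.13% ± 1.49 (SD, n = 5). Mural cells, the pericytes and smooth muscle around them, were 5.07% ± 1.29 (SD, n = 3) against 2.19% ± 0.741 (SD, n = 5).

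Each of these 5 classes gave p = 0.0179 in an exact two-sided permutation test over animals, the smallest p that 3 against 5 can give. Adjusted over 14 classes this was 0.05, which is not under the threshold, so 0 of 14 classes were called and 5 had an unadjusted p under 0.05. Astrocytes (13.2% ± 0.581, n = 3, against 12.9% ± 1.29, n = 5) and oligodendrocytes (16.2% ± 0.814, n = 3, against 16.3% ± 7.52, n = 5) overlapped. The same 5 classes did not overlap when the shared cells were left out, each with p = 0.0179 in the exact permutation test.

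The rTta animals lay outside the WT range for some of these classes. Their interneurons, at 1.97% to 2.96%, lay below those of every WT animal (3.41% to 6.41%), and their mural cells, at 3.65% to 5.02%, above those of every WT animal (1.20% to 2.90%). For microglia (9.43% to 12.0%) and endothelial cells (6.49% to 9.22%) 2 of the 3 rTta animals lay above every WT animal, and for excitatory neurons (21.5% to 31.7%) 2 of the 3 lay inside the WT range. These rTta shares were not tested.

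**Figure D1:**
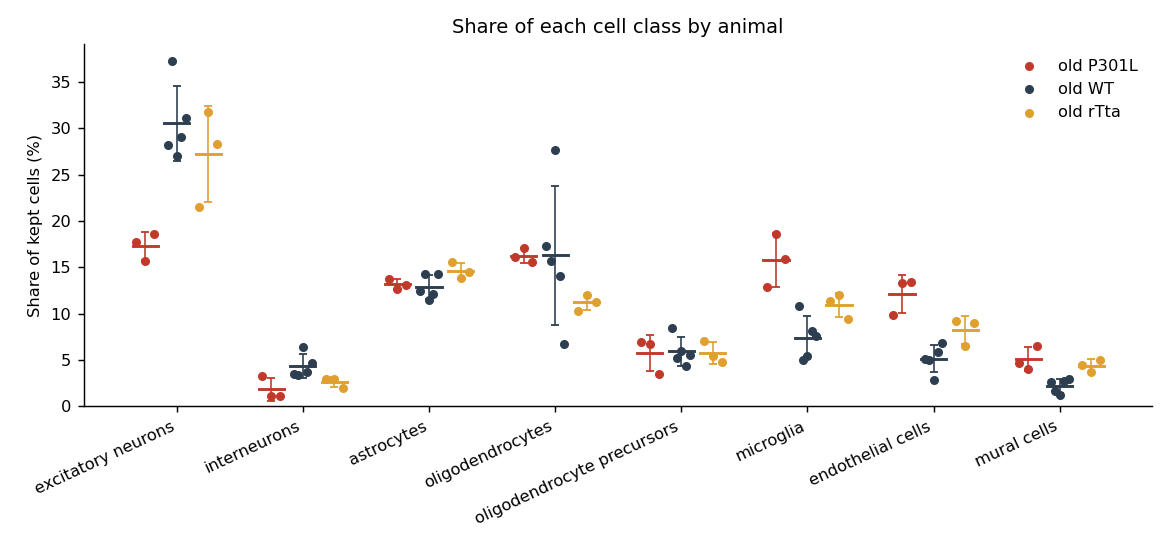
Share of kept cells (percent, vertical axis) in 8 cell classes, with 1 point per animal for old P301L, old WT and old rTta, and the mean and SD as bars. The 3 P301L points lie below all WT points for excitatory neurons and interneurons and above them for microglia, endothelial cells and mural cells.

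Microglia gave the most calls of the 7 classes tested. In each of its clusters all 11 microglia markers were higher than in the other cells, and several led the largest of them. The clusters were named by these same markers, so this is no separate check of the label. The class held 139, 252 and 129 cells in the P301L animals and 173, 25, 27, 97 and 71 cells in the WT animals. Levels in WT replicates 2 and 3 thus rest on few cells. Of 4729 genes tested 271 were called (5.73%), 81 higher (1.71%) and 190 lower (4.02%) in P301L. Of the 81 higher genes 63 had their highest level in microglia, against 20.0% of the genes tested. Highest levels here and below are among excitatory neurons, interneurons, astrocytes, oligodendrocytes, their precursors, microglia, endothelial cells and mural cells. Other classes, such as perivascular macrophages, were left out. Of the 190 lower genes 117 were highest in neurons and 42 in astrocytes, and 6 in microglia, against 27.5% of tested genes highest in neurons. All 3 P301L animals lay above all 5 WT animals for 6.6% of tested genes and below them for 5.92%, the background for single genes whose groups do not overlap.

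**Figure D2:**
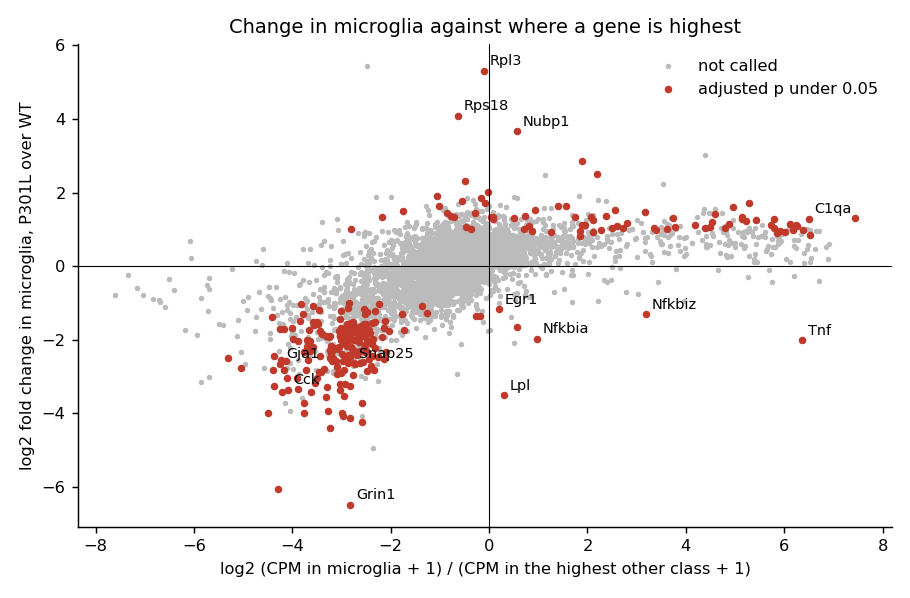
Each point is 1 of the 4729 genes tested in microglia. The horizontal axis gives the log2 ratio of its level in microglia to its level in the highest other class, and the vertical axis its log2 fold change of P301L over WT, with called genes in red. Called lower genes cluster at the left, where neurons and astrocytes hold the gene's highest level, and called higher genes lie mostly at the right.

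The cytokine gene Tnf and the NF-kB regulators Nfkbia and Nfkbiz were lower in P301L microglia. Promoters of Nfkbia and Tnfaip3, which encode feedback inhibitors of NF-kB, are shown because each holds an NF-kB site in the 250 bases before its start. Both sequences are from RefSeq (GRCm38.p6), on the minus strand, at chr12:55492648-55492897 for Nfkbia and chr10:19015411-19015660 for Tnfaip3, with the site in capitals.
Nfkbia: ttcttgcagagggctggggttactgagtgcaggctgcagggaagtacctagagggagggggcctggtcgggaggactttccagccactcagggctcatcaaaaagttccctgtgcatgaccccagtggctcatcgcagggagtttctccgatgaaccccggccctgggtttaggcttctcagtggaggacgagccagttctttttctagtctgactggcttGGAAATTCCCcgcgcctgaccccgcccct
Tnfaip3: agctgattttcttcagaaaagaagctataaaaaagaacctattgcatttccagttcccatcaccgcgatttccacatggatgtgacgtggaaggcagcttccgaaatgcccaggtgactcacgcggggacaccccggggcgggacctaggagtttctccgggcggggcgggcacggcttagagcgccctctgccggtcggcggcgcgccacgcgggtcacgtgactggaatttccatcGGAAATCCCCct
The NF-kB site, a degenerate motif searched on both strands, occurred in 2 of the 8 genes with a promoter in the reference out of 11 genes called lower below, and in 5.0% of all 32851 promoters of this length. A second listed start of Tnfaip3 and the promoters of Tnf, Icam1, Junb, Zfp36, Btg2 and Gadd45b had no match in this window. A match describes letters and shows no binding.

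Tnf (chr17:35199381-35202007), the cytokine tumour necrosis factor, was at 129, 73.0 and 225 CPM in P301L microglia and at 887, 282, 336, 651 and 390 CPM in WT. Every P301L animal lay below every WT animal, with a log2 fold change of -2.01 (SE 0.49, edgeR adjusted p = 0.017). Nfkbia (chr12:55489410-55492647) was at 525, 597 and 1839 CPM in P301L and at 4148, 4039, 5345, 2522 and 3213 CPM in WT. The groups did not overlap, although the third P301L animal stood well above the other P301L animals, and the log2 fold change was -1.97 (SE 0.51, edgeR adjusted p = 0.029). Nfkbiz (chr16:55811375-55838899), an NF-kB cofactor, was at 247, 391 and 450 CPM in P301L against 1043, 908, 1203, 917 and 454 CPM in WT, with the lowest WT animal almost level with the highest P301L animal (log2 fold change -1.31, SE 0.34, edgeR adjusted p = 0.020). Leaving out P301L replicate 1 or replicate 2 ended the calls of all 3 genes, and leaving out WT replicate 4 ended that of Tnf and WT replicate 3 that of Nfkbia. Without the shared cells, 18 of which are microglia, the third P301L animal was at 131 CPM for Tnf, 1305 CPM for Nfkbia and 473 CPM for Nfkbiz, the last inside the WT range. All 3 genes were called there as well: Tnf at -2.34 (edgeR adjusted p = 0.0036), Nfkbia at -2.26 (0.0045) and Nfkbiz at -1.28 (0.021), among 300 calls (6.31%), of which 251 were among the 271.

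Of 13 tested genes of the cytokine and NF-kB list these 3 fell and none rose, and the list's median log2 fold change was -0.42 against 0.05 over all genes tested. The 3 cytokines Il1b, Ccl3 and Ccl4 were not called, at log2 fold changes of 0.53, 0.64 and 0.11. Neuron and astrocyte markers took a larger share of the WT microglia counts. The fit was therefore repeated over the 964 genes whose highest level was in microglia, which rescales each animal to these genes. There 12 genes were called (1.24%), 1 higher (0.104%) and 11 lower (1.14%). Of the 13 list genes 6 fell: Tnf (-2.63, edgeR adjusted p = 0.036), Nfkbia (-2.55, 0.036), Nfkbiz (-1.91, 0.0010), Icam1 (-1.56, 0.0098), Tnfaip3 (-1.51, 0.021) and Zfp36 (-1.29, 0.00039). All 6 were called in this fit without the shared cells too, with edgeR adjusted p from 6.6e-05 for Zfp36 to 0.010 for Tnf. Icam1 is an adhesion molecule and Zfp36 encodes tristetraprolin, which destabilises Tnf messenger RNA.

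Pooled over animals, the microglia clusters were not mixed alike in the groups. The largest, led by the homeostatic genes P2ry12 and Cx3cr1, held 429 of 520 P301L and 268 of 393 WT microglia, and a cluster led by Il1b, Ccl4 and Tnf held 20 P301L, 37 WT and 114 rTta cells. By animal P301L and WT overlapped in both. The largest held 66.7% to 91.4% of microglia in P301L and 53.6% to 80.9% in WT. The cluster led by Il1b held 1.44% to 6.20% in P301L and 3.47% to 22.2% in WT. In the largest cluster alone 85 of 3144 genes (2.7%) were called lower and 9 higher (0.286%). The same 6 genes of the list fell there, among them Tnf (log2 fold change -2.70, edgeR adjusted p = 0.00081) and Nfkbia (-2.73, edgeR adjusted p = 0.038), the latter not called without the shared cells (edgeR adjusted p = 0.055). Both restrictions were chosen after the first values were seen.

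rTta microglia did not share the low levels. Tnf was at 1011, 515 and 637 CPM, Nfkbia at 5911, 7302 and 4627 CPM and Zfp36 at 3116, 3133 and 2902 CPM in rTta, each animal above every P301L animal. The cluster led by Il1b, Ccl4 and Tnf held 25.2% of rTta microglia (20.1% to 27.9% by animal) and 3.85% of P301L microglia (1.44% to 6.20%), without overlap. The part of this mixture in the differences from rTta was not tested. The median count per kept microglial cell was 608 to 679 in P301L animals, 838 to 1207 in WT and 863 to 917.5 in rTta. The part of this depth in the differences from WT and from rTta was not tested either. P301L against rTta gave 25 calls of 4729 (0.529%), 15 of them lower (0.317%) and 10 higher (0.211%). Tnf (log2 fold change -2.41, edgeR adjusted p = 0.020), Nfkbia (-2.61, 0.028) and Zfp36 (-1.31, 0.030) were among the lower genes, and Nfkbiz was not (-1.38, 0.065). Age and genotype cannot be told apart here either, since all P301L animals were older than all rTta animals. This comparison was added after the WT values were seen, uses the same 3 P301L animals, and sets P301L replicate 3 against a library with which it shares cells. Without those cells it gave 44 calls (0.926%), and Tnf (-2.77, edgeR adjusted p = 0.0012), Nfkbia (-2.92, 0.00095) and Zfp36 (-1.45, 0.0058) were called, as was Nfkbiz (-1.39, 0.046). Without rTta replicate 3 Tnf (edgeR adjusted p = 0.041) and Nfkbia (0.048) were called and Zfp36 was not (0.054), and without P301L replicate 3 all of Tnf (0.0097), Nfkbia (0.00052) and Zfp36 (0.023) were.

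Immediate early genes of microglia moved the same way in part. Ier2, an early transcription factor, was at 429, 345 and 513 CPM in P301L and 920, 845, 1371, 1385 and 909 CPM in WT, without overlap (log2 fold change -1.35, SE 0.30, edgeR adjusted p = 0.0060). Ier3, an early gene that protects cells from apoptosis, was at 257, 192 and 300 CPM against 835, 532, 672, 486 and 617 CPM (-1.36, SE 0.32, edgeR adjusted p = 0.0093), and at 1143, 1014 and 655 CPM in rTta. Egr1, an early zinc finger factor, fell by 1.18 (SE 0.33, edgeR adjusted p = 0.031). These were 3 of 19 list genes tested, with a median of -0.23, and Fos (-0.68), Fosb (-0.22), Dusp1 (-0.23) and Junb (-0.74) were not called. Gadd45b, a growth arrest gene induced by NF-kB, was at 42.9, 59.7 and 50 CPM in P301L, 189, 313, 252, 91.7 and 64.9 CPM in WT and 411, 288 and 248 CPM in rTta, lower than WT (-1.64, SE 0.50, edgeR adjusted p = 0.042) and than rTta (-2.59, edgeR adjusted p = 0.0019). In the fit over genes highest in microglia Egr1 (-1.77, edgeR adjusted p = 0.00036), Junb (-1.34, 0.00066), Gadd45b (-2.19, 0.036) and Btg2 (-0.90, 0.036), an antiproliferative early gene, were called lower.

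The 2 other calls of that fit were sparse. Lpl, lipoprotein lipase, had 1 count in P301L microglia and 17 in WT, a ratio of 14.9 by total counts (exact 95% interval 2.33 to 623, counting error only). Nubp1, an iron-sulphur assembly factor, had 24 counts in P301L and 2 in WT, a ratio of 13.7 (3.40 to 120), and was the only gene called higher.

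**Figure D3:**
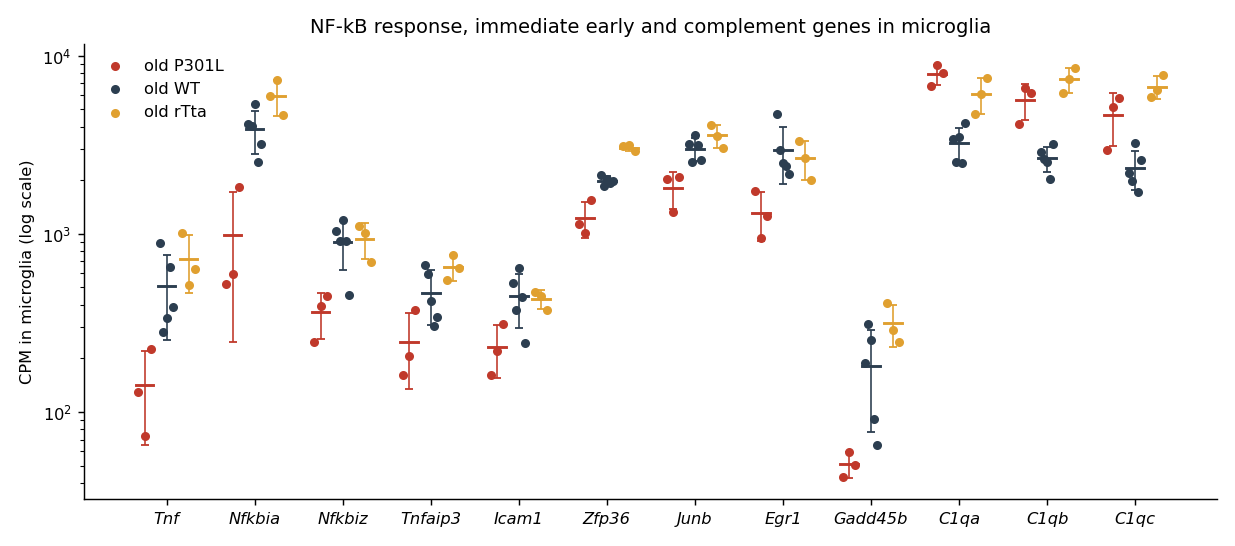
CPM in microglia (log scale) of 9 NF-kB response and early genes and 3 complement genes, with 1 point per old P301L, WT and rTta animal and the mean and SD as bars. For Tnf, Nfkbia and Zfp36 the P301L points lie below both other groups, whereas for C1qb and C1qc the rTta points lie level with or above the P301L points.

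Several complement and homeostatic genes were higher in P301L microglia than in WT. C1qa (chr4:136895917-136898803), a chain of the complement starter C1q, was at 6797, 8820 and 8043 CPM in P301L and 3391, 2536, 3498, 2504 and 4203 CPM in WT, without overlap (log2 fold change 1.29, SE 0.29, edgeR adjusted p = 0.0078). C1qb rose by 1.08 (edgeR adjusted p = 0.014), C1qc by 0.99 (0.031; 0.061 without the shared cells), and C3ar1, the receptor for the C3a fragment, by 1.27 (0.021). These were among the 5 of 8 tested complement genes that rose, and the list's median was 1.01. Of 20 homeostatic genes 3 rose, among them Tmem119 (1.14, edgeR adjusted p = 0.034) and Olfml3 (1.12, edgeR adjusted p = 0.031), and Egr1 fell. Of 18 disease-associated genes the lysosomal proteases Ctsb, Ctsd and Ctsz and the receptor pair Trem2 and Tyrobp rose and Lpl fell. Pla2g15, a lysosomal phospholipase, was at 611, 531 and 500 CPM against 235, 125, 83.9, 174 and 292 CPM (1.48, SE 0.31, edgeR adjusted p = 0.0045).

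None of these rises was called over the genes highest in microglia: C1qa stood at 0.72 (edgeR adjusted p = 0.14), Pla2g15 at 0.91 (0.061) and the complement list's median at 0.44. The rTta animals had C1qb at 6155, 7386 and 8529 CPM, above WT (log2 fold change 1.47, edgeR adjusted p = 0.00061), and P301L did not differ from rTta by the test (-0.39, edgeR adjusted p = 0.83). Ribosomal protein genes that differ between the parts of the table moved with these. Rpl3 had no count in any WT microglia and 21.4, 19.9 and 75.0 CPM in P301L, at least 4.18-fold higher against a floor of 3 counts over the WT animals, and 467, 325 and 239 CPM in rTta. Such genes have many near-identical copies, and how shared reads were counted is not given in the sources used here. H2-DMa, an MHC class II chaperone, was higher than WT (2.85, edgeR adjusted p = 0.042; 0.086 without the shared cells) and lower than rTta (-2.04, edgeR adjusted p = 0.049; 0.0097 without the shared cells and 0.086 without rTta replicate 3).

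The called lower genes of microglia mostly had their highest level in other classes, and from which cells these transcripts came was not tested. Grin1, an NMDA receptor subunit, had no count in P301L microglia and 58.7, 62.6, 112, 73.4 and 114 CPM in WT, at least 8.76-fold lower against a floor of 3 counts over the P301L animals. Cck, a neuropeptide, fell by 3.36 (SE 0.55, edgeR adjusted p = 0.00086) and Snap25, a synaptic vesicle fusion protein, by 2.64 (SE 0.60, edgeR adjusted p = 0.014). Gja1, the astrocyte gap junction protein connexin 43, fell by 2.65 (SE 0.58, edgeR adjusted p = 0.0087). By list, 6 of 16 vesicle fusion genes, 8 of 16 glutamate receptor and postsynaptic genes, 7 of 12 neuropeptides and granins, 5 of 9 GABA genes and 6 of 13 astrocyte transport genes fell, and 0 of these rose. Prnp also fell (-1.57, edgeR adjusted p = 0.014), with rTta at the P301L level (105, 159 and 283 CPM).

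The 30 neuron markers together made 0.122%, 0.134% and 0.187% of the counts of P301L microglia, against 0.468%, 0.643%, 0.287%, 0.891% and 0.385% in WT and 0.205% to 0.272% in rTta. The P301L and WT animals did not overlap. In P301L 4 of the 30 markers were at 0 and in WT none, and of 18 tested 17 were negative and 10 called lower. The 11 astrocyte markers made 0.116% to 0.257% in P301L and 0.299% to 0.653% in WT, and 7 of 10 tested were called lower. The 11 microglia markers made 4.72% to 5.45% against 2.38% to 3.95%, and 7 of 11 were called higher. The part of these neuron and astrocyte marker transcripts in the other calls was not tested beyond the restricted fit above.

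**Figure D4:**
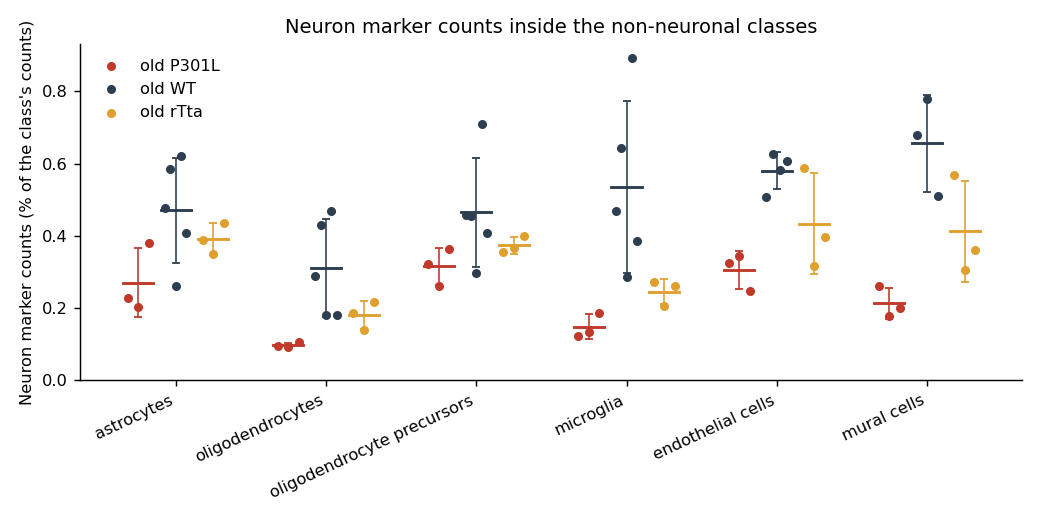
Counts of 30 neuron markers as a percent of all counts of each non-neuronal class, with 1 point per old P301L, WT and rTta animal and the mean and SD as bars. The P301L animals lie below all WT animals in oligodendrocytes, microglia, endothelial cells and mural cells and overlap them in astrocytes and oligodendrocyte precursors.

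In oligodendrocytes, the myelinating cells, the 10 markers by which they were named made 9.64% to 10.6% of counts in P301L and 7.02% to 12.7% in WT. Of 5495 genes 33 were called (0.601%), 5 higher (0.091%) and 28 lower (0.51%). Among the 5 were the immediate early genes Fosb, a partner of Jun in the AP-1 factor, and Dusp1, a phosphatase that switches off MAP kinases. Their promoters are shown because both hold TGACG, the core of the cAMP response element. They are from RefSeq (GRCm38.p6), minus strand, at chr7:19310046-19310295 for Fosb and chr17:26508473-26508722 for Dusp1, with matches on either strand in capitals.
Fosb: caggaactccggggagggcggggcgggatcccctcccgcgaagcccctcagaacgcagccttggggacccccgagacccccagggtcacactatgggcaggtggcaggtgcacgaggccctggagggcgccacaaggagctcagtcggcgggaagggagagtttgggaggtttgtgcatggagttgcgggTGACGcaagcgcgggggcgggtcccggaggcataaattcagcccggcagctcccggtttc
Dusp1: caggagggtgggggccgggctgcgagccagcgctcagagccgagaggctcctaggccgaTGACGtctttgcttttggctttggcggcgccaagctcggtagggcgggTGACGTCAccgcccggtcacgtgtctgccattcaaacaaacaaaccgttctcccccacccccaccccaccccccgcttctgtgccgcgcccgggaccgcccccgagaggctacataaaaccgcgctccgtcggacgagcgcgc
TGACG or its complement occurred 1 time in the Fosb window and 3 times, with overlap, in the Dusp1 window, and in 17.8% of the 32851 promoters.

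Fosb (chr7:19302696-19310051) was at 315, 350 and 304 CPM in P301L oligodendrocytes and at 50.4, 216, 91.2, 92.6 and 69.1 CPM in WT. All P301L animals lay above all WT animals, as for 3.57% of tested genes (log2 fold change 1.70, SE 0.40, edgeR adjusted p = 0.046). In rTta it was at 72.9, 88.5 and 62.7 CPM, below every P301L animal (2.10, edgeR adjusted p = 0.031; 0.564% of genes called against rTta). Without the shared cells Fosb was called against WT (1.81, edgeR adjusted p = 0.030; 0.744% of genes called) and against rTta (2.13, edgeR adjusted p = 0.024; 0.871%). Without P301L replicate 3 (edgeR adjusted p = 0.065) or rTta replicate 3 (0.21) it was not called against rTta. Dusp1 was at 267, 445 and 229 CPM in P301L, 59.3, 57.7, 169, 117 and 11.5 CPM in WT and 101, 172 and 157 CPM in rTta. The P301L animals lay above both groups, and the change from WT was called (1.81, SE 0.37, edgeR adjusted p = 0.026) and that from rTta was not (1.14, edgeR adjusted p = 0.32). Leaving out any of the 3 P301L animals ended both calls, as did leaving out WT replicate 1 or 4, WT replicate 2 for Dusp1 and WT replicate 5 for Fosb. All 14 tested immediate early genes were positive, with a median of 0.80 against 0.01 over all genes, and the 2 named were the ones called.

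Some early genes were called higher in oligodendrocytes and others lower in microglia of the same animals, and the difference between the classes was tested for 15 genes after the values were seen. The change in oligodendrocytes minus that in microglia, on a log2(CPM + 10) scale, was 2.21 for Nfkbia, 1.85 for Fos, 1.92 for Fosb, 2.10 for Egr1, 1.81 for Ier2, 2.24 for Dusp1 and 1.64 for Ppp1r15a. Each gave p = 0.0179 in an exact two-sided permutation test over 3 and 5 animals, the smallest possible, and 0.0383 after Benjamini-Hochberg adjustment over the 15. Each of the 7 again gave the smallest possible p when the shared cells were left out, with differences of 1.78 to 2.41. Among the other 8 genes Junb (1.49, adjusted p = 0.10 by the exact test) and Zfp36 (1.17, 0.15) came nearest.

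The other genes called higher in oligodendrocytes were Llgl1, a cell polarity gene, Slc16a1, the lactate transporter MCT1, and Tm7sf3. Slc16a1 was at 162, 167 and 174 CPM in P301L against 59.3, 72.1, 114, 68.4 and 80.6 CPM in WT (log2 fold change 1.10, SE 0.26, edgeR adjusted p = 0.036), and as high in rTta at 129, 191 and 162 CPM. Of the 28 lower genes 23 were highest in neurons. Sst, the interneuron peptide somatostatin, had 1 count in P301L and 95 in WT oligodendrocytes, a ratio of 59.5 by total counts (exact 95% interval 10.4 to 2375, counting error only; edgeR adjusted p = 4.1e-05), and rTta had 32.6 to 67.9 CPM. Snap25 fell by 2.56 (SE 0.53, edgeR adjusted p = 0.033). Neuron markers made 0.0943%, 0.0914% and 0.105% of the P301L counts and 0.287%, 0.431%, 0.182%, 0.470% and 0.181% of the WT counts, without overlap. Over the 984 genes highest in oligodendrocytes 0 (0.0%) were called by edgeR, with 79 at an unadjusted p under 0.05. Fosb and Dusp1 are highest in mural and endothelial cells and so were not among them.

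Astrocytes gave 3 calls of 5347 genes (0.0561%), all lower and all highest in neurons: Gad1, Sncb and Ndrg4. Gad1, which makes the transmitter GABA, had no count in P301L astrocytes and 35.3, 67.6, 58.6, 133 and 24.2 CPM in WT, at least 8.14-fold lower against a floor of 3 counts over the P301L animals. Sncb, beta-synuclein, was at 23.6, 0 and 43.0 CPM against 128, 124, 58.6, 176 and 96.6 CPM (log2 fold change -2.82, SE 0.59, edgeR adjusted p = 0.037). Gfap, the filament protein of reactive astrocytes, was at 707, 4949 and 646 CPM in P301L and 763, 293, 422, 533 and 272 CPM in WT. The second P301L animal stood far above all others and the others lay within the WT range, and the change was not called (2.2, SE 0.56, edgeR adjusted p = 0.14). Without P301L replicate 3 it was (edgeR adjusted p = 0.033). When the shared cells, 33 of the astrocytes of P301L replicate 3, were left out, 24 genes were called (0.456%), 20 of them lower, among them the 3 named, and Gfap was not (edgeR adjusted p = 0.080). Serpina3n, an acute-phase protease inhibitor, was high in the same animal, at 133, 780 and 158 CPM against 79.4 to 223 CPM. All 8 tested reactive astrocyte genes were positive, with a median of 1.26, and 0 were called.

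Endothelial cells were compared in 3 P301L and 4 WT animals, since WT replicate 3 held too few. Of 3053 genes 9 were called (0.295%), all lower, and 5 of these were highest in neurons. Rgs7bp, which anchors G protein regulators in neurons, was at 35.0, 34.2 and 95.5 CPM in P301L and 316, 683, 302 and 483 CPM in WT (log2 fold change -2.97, SE 0.54, edgeR adjusted p = 0.0071). Cpne6, a neuronal calcium sensor, fell by 3.49 (edgeR adjusted p = 0.028), with rTta at the P301L level (11.1, 17.8 and 39.9 CPM). The 18 tested immediate early genes were all positive (median 0.70) and so were the 12 antigen presentation genes (median 0.94), against -0.02 over all genes, and 0 of either were called. Neuron markers made 0.247% to 0.345% of P301L and 0.507% to 0.626% of WT counts, and over the 772 genes highest in endothelial cells 1 was called (0.13%), the ribosomal protein gene Rpl7, lower. With the shared cells left out 25 genes were called (0.84%), 20 of them lower and 5 higher, all 9 above among them, and 0 over the genes highest in the class by edgeR, with 57 at an unadjusted p under 0.05.

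Mural cells were compared in 3 and 3 animals, and 6 of 1359 genes were called (0.442%), 2 higher (0.147%) and 4 lower (0.294%). Hrct1 was at 821, 898 and 193 CPM in P301L against 39.4, 123 and 57.0 CPM in WT replicates 1, 4 and 5 (log2 fold change 3.01, SE 0.66, edgeR adjusted p = 0.042). Art3, a surface ADP-ribosyltransferase, rose by 1.91 (edgeR adjusted p = 0.046) and was as high in rTta (1495, 1294 and 1313 CPM). Ppp3ca, the neuronal calcineurin subunit, was at 219, 236 and 242 CPM against 2362, 1110 and 1597 CPM (-2.84, SE 0.48, edgeR adjusted p = 0.0020). Ahi1, Rtn1 and Celf4 also fell, and all 4 lower genes were highest in neurons. The 2 mural clusters were mixed differently in the groups. The cluster led by Vtn, Higd1b and Rgs5, genes of pericytes, held 80.0% to 88.7% of the mural cells of each P301L animal, 48.2% to 68.3% in WT and 68.9% to 85.9% in rTta. The cluster led by Acta2, Myh11 and Tagln, genes of smooth muscle, held 11.3% to 20.0% in P301L and 31.7% to 51.9% in WT, without overlap, and 14.1% to 31.1% in rTta. Art3 lay almost wholly in the pericyte cluster, with 25 of 27 WT mural counts there, and pooled over the animals of a group it was at 979 CPM in that cluster in P301L, 399.5 CPM in WT and 1144 CPM in rTta. Hrct1 was at 427 CPM in that cluster in P301L (34 counts), 79.9 CPM in WT (5 counts) and 181 CPM in rTta, and Ppp3ca was lower in P301L in both clusters (151 against 1007 CPM, and 92.2 against 916 CPM). These pooled levels have no test, because too few WT animals held 20 cells of either cluster, and the part of the mixture in the calls was not tested further. Leaving out the shared cells gave 11 called genes (0.799%), the 6 above among them, and 0 over the genes highest in the class by edgeR, with 59 at an unadjusted p under 0.05. The neuron marker share was 0.177% to 0.260% in P301L and 0.511% to 0.778% in WT, without overlap. Over the 359 genes highest in mural cells 2 were called (0.557%), both lower.

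In oligodendrocyte precursors 0 of 3749 genes (0.0%) were called by edgeR, with 265 at an unadjusted p under 0.05 and 0 called by DESeq2. Leaving out the shared cells gave 1 call (0.027%), Nrgn, a neuronal calmodulin-binding protein, at 173, 187 and 115 CPM in P301L against 709, 694, 345, 928 and 483 CPM in WT (log2 fold change -1.91, SE 0.39, edgeR adjusted p = 0.018).

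Excitatory neurons gave 0 calls of 9316 genes (0.0%) by edgeR, with 788 at an unadjusted p under 0.05 and 2 calls by DESeq2. Slc8a1 (chr17:81373105-81738377), the sodium-calcium exchanger NCX1, was at 248, 190 and 218 CPM in P301L and 300.5, 530, 524, 451 and 525.6 CPM in WT. All P301L animals lay below all WT animals and below the 488, 531 and 385 CPM of rTta. The change from WT was not called over all genes (log2 fold change -1.08, SE 0.22, edgeR adjusted p = 0.096), was called over the 1688 genes highest in these neurons (-1.12, edgeR adjusted p = 0.028; 1 call, 0.0592%), and that from rTta was called (-1.10, edgeR adjusted p = 0.036; 0.225% of genes called). Without P301L replicate 3 (edgeR adjusted p = 0.052) the change from rTta was not called. In the largest excitatory cluster alone the change from WT was -0.33 (edgeR adjusted p = 0.93). The excitatory clusters were mixed differently in the groups: the one led by Fibcd1 and Crym, which has Slc8a1 among its 10 leading genes, held 7.39% of P301L excitatory neurons (3.97% to 9.90% by animal) and 12.8% of WT (7.53% to 28.9%). Pooled over animals, Slc8a1 was at 649 CPM in P301L and 985 CPM in WT in that cluster. It was at 50.9 and 64.4 CPM in the cluster fitted alone, and at 227 and 256 CPM in the one with the most P301L and WT cells. It was lower in P301L in each of the 5 excitatory clusters pooled in this way, with no test, and the part of the mixture in the change was not tested further.

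Without the shared cells, 43 of the excitatory neurons of P301L replicate 3, 3 of 9304 genes were called (0.0322%). They were Slc8a1 (-1.24, edgeR adjusted p = 0.029), with P301L replicate 3 at 104 CPM, Fam115a (-1.56, edgeR adjusted p = 0.029) and Cacna1g, a T-type calcium channel, which was at 65.0, 130 and 13.0 CPM in P301L and 13.8 to 26.8 CPM in WT, with overlap (2.04, edgeR adjusted p = 0.029). Against rTta Slc8a1 was called there as well (-1.29, edgeR adjusted p = 0.0097; 0.365% of genes called). With all cells Fam115a was at 37.6, 30.3 and 63.4 CPM against 92.9, 90.2, 131, 110 and 112 CPM, also without overlap (-1.42, SE 0.28, edgeR adjusted p = 0.096). Vesicle fusion (median 0.00) and postsynaptic genes (-0.04) stood at the median of all genes (-0.02), neuropeptides and granins at -0.27 (13 of 18 negative) and GABA genes at -0.51, while all 13 tested myelin genes were negative (median -1.06) with 0 called.

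Summed over all cells of each animal, 0 of 12414 genes (0.0%) were called by edgeR, with 1839 at an unadjusted p under 0.05 (14.8%) and 169 called by DESeq2 (1.36%). Without the shared cells 0 were called by edgeR as well, with 2101 at an unadjusted p under 0.05. The fit includes old rTg4510 replicate 3, of whose kept cells 34.15% were choroid plexus cells. Without that animal 136 of 12369 genes (1.1%) were called by edgeR. Over named cells outside the choroid plexus 398 of 12299 genes (3.24%) were called. In such sums fewer cells of a class and less RNA per cell cannot be told apart. Among the gene lists, complement genes stood at a median of 1.57 (9 of 10 positive), homeostatic microglia genes at 1.38 (19 of 20) and GABA genes at -0.91 (1 of 17), against -0.03 over all genes. The other list medians of these sums are not given here, and the part of the cell shares in the medians was not tested. Fam115a had among the lowest p values, at 25.1, 26.3 and 29.1 CPM in P301L against 58.1, 54.1, 71.3, 58.4 and 78.1 CPM in WT, without overlap (-1.26, SE 0.23, edgeR adjusted p = 0.093).

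**Figure D5:**
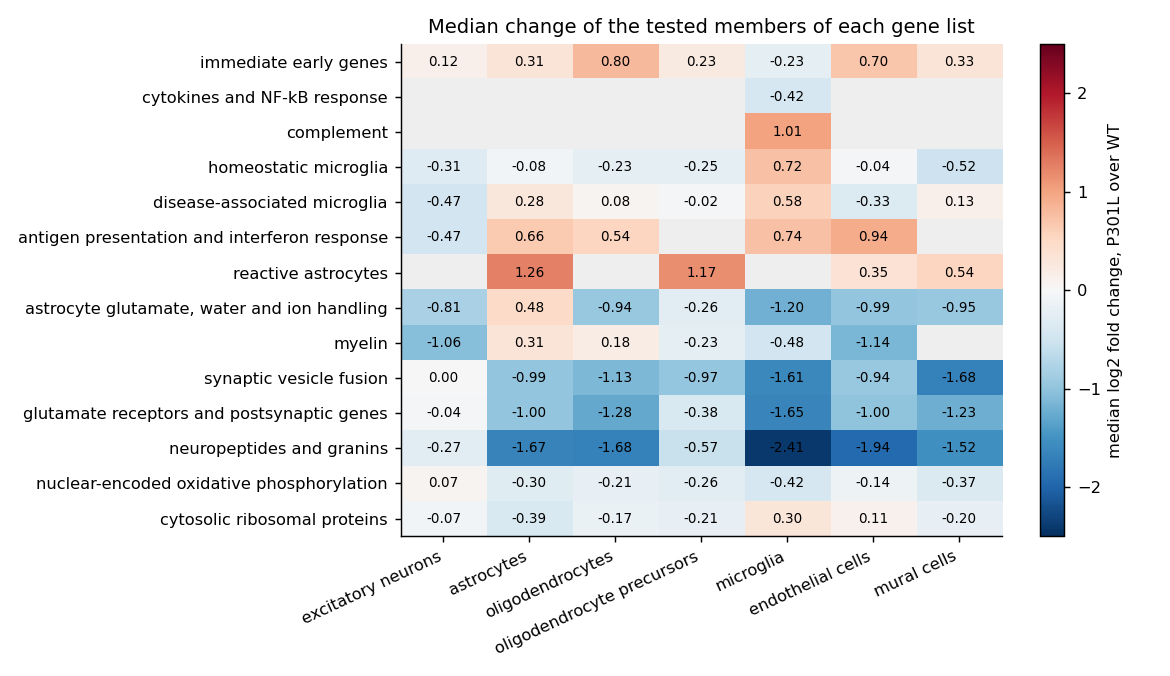
Median log2 fold change of P301L over WT for the tested members of 14 gene lists (rows) in 7 cell classes (columns), with the value printed in each cell and grey where the list had too few tested members. The vesicle fusion, postsynaptic and neuropeptide lists are negative in the 6 non-neuronal classes, and inside excitatory neurons they stand at 0.00, -0.04 and -0.27, and immediate early genes are positive in every class but microglia.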

How the data were processed

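Drop-seq libraries of mouse hippocampus were read from 1 deposited table of raw counts (molecular identifiers per gene and cell), with no normalization. Per the submitters' processing notes, bcl2fastq 2.18.0.12 and STAR 2.2 were used with mm10; the counting tool, annotation and filters are not given in the sources used here.

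Cells with 300 or more counts were kept in all 22 animals. They were clustered with scanpy 1.11.5 (2000 variable genes, 40 principal components, 15 neighbours, resolution 1, 42 clusters) and named from marker lists; no doublet caller was run. Raw counts were summed per animal and per class (20 or more cells) and tested with edgeR 4.0.16 (quasi-likelihood, TMM, low-count filter, 6 groups in 1 fit, Benjamini-Hochberg adjustment over all genes tested, threshold 0.05). DESeq2 1.42.0 was an alternative. Shares of cells were compared by exact permutation over animals. Intervals and floors cover counting error only. The fits were tested on simulated data.

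Named genes were a set always given (Mapt, Prnp, Fgf14, Wdr60, Esyt2, Ptprn2), the largest called changes with a mean of 20 CPM or more and no overlap between groups, and the called or lowest-p members of each gene list. Members and lists were chosen with earlier results of these data known. Where the text names another gene, such as Slc8a1 or Fam115a, it was chosen after its values were seen. Positions are from GENCODE (GRCm38), where 11868 of the 12614 genes matched once by symbol. Alternatives were no filter, other scaling, only the compared groups, 500 counts per cell, WT of 39 and 40 weeks, each animal left out and 4 restrictions added after seeing the data (genes highest in the class, the largest cluster, rTg4510 replicate 3 left out, and the 176 cells shared by P301L replicate 3 and rTta replicate 3 left out, also together with the first 2). Some called genes are counted in the lists but not reported by name here.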

Additional observations from a re-analysis of the deposited data

Results flagged for a closer look

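In 8 of the 103 sets of WT values examined 1 animal lay far from the other WT animals, and chance alone marks about 1 in 20 such sets. They were Fosb in oligodendrocytes (216 CPM in WT replicate 2), Gad2 in oligodendrocytes (123 CPM), and in microglia Il1b (1221 CPM), Ccl4 (4477 CPM), Rps18 (16.2 CPM) and H2-DMa (27.5 CPM). The other 2 were shares of cells in WT replicate 4, with 0.75% ependymal cells and 4.92% choroid plexus cells.

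The change from WT to P301L differed between oligodendrocytes and microglia in an exact permutation test for 7 of 15 early genes, each higher in oligodendrocytes: by 2.21 for Nfkbia, 1.85 for Fos, 1.92 for Fosb, 2.10 for Egr1, 1.81 for Ier2, 2.24 for Dusp1 and 1.64 for Ppp1r15a (log2, adjusted p = 0.0383 by the exact test for each). Of these genes Nfkbia, Egr1 and Ier2 were called lower in microglia and Fosb and Dusp1 higher in oligodendrocytes by edgeR. The difference between the classes was tested after these values were seen, in the same animals.

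In data outside the comparison, 801 genes had counts in every P301L and rTta animal and none in the other 16 animals. They made 0.311% to 0.346% of P301L counts.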

How the results depend on the processing

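The number of genes called moved with the settings in every comparison. Over whole animals it was 0, and it was 169 with DESeq2, 213 with the 2 groups fitted alone, 12 with WT of 39 and 40 weeks, 136 without rTg4510 replicate 3, 398 over named cells outside the choroid plexus (239 higher, 159 lower) and 8 with 6 classes weighted equally. In excitatory neurons (0) it was 2 with DESeq2 and 1 over genes highest in the class. In astrocytes (3) it was 22 without the filter, 10 at 500 counts per cell, and 0 with the 2 groups alone, with the older WT animals, in the largest cluster and over genes highest in the class. In oligodendrocytes (33) it was 64 with DESeq2, 102 with the 2 groups alone, 1 with the older WT animals, 56 in the largest cluster and 0 over genes highest in the class. In precursors (0) it was 12 without the filter and 2 at 500 counts. In microglia (271) it was 103 with the older WT animals, 94 in the largest cluster and 12 over genes highest in the class. In endothelial cells (9) it was 61 without the filter, 67 with the 2 groups alone, 3 at 500 counts, 3 with the older WT animals and 1 over genes highest in the class. In mural cells (6) it was 14 without the filter, 32 with the 2 groups alone, 24 at 500 counts and 2 over genes highest in the class. Without the cells shared by 2 libraries it was 3 in excitatory neurons, 24 in astrocytes, 1 in precursors, 25 in endothelial cells and 11 in mural cells, and within 1.5 times of the value with all cells elsewhere. Without these cells and over genes highest in the class it was 1 in excitatory neurons, 13 in microglia and 0 in astrocytes, oligodendrocytes, endothelial and mural cells. Without them and in the largest cluster it was 2 in excitatory neurons, 7 in astrocytes, 68 in oligodendrocytes, 1 in precursors, 92 in microglia and 25 in endothelial cells. Where fewer genes or animals were tested the construction differs; otherwise the cause was not tested.

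Leaving out 1 animal at a time gave 0 to 54 calls over whole animals (54 without WT replicate 1), 0 to 4 in excitatory neurons, 0 to 60 in astrocytes (60 without P301L replicate 3), 1 to 84 in oligodendrocytes (84 without WT replicate 3, 1 without WT replicate 4), 0 to 5 in precursors, 18 to 296 in microglia (18 without P301L replicate 2, 40 without replicate 1, 98 without WT replicate 4), 0 to 20 in endothelial cells and 1 to 33 in mural cells (20 and 33 without WT replicate 5). The shares of cells gave 0 calls in each alternative. Among single genes, 6749 values kept their direction or stayed uncalled, 494 lost the call, 238 gained it and none reversed.

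No paired analysis was possible because the labels give no replicate numbers and those used here follow accession order. The lower depth of P301L cells limits genes of a few counts.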

Other observations

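The 71 nuclear-encoded oxidative phosphorylation genes tested in microglia had a median log2 fold change of -0.42, with 64 negative and 0 called by edgeR, and those in excitatory neurons a median of 0.07. The part of transcripts from other cell classes in the microglia median was not tested. In microglia 16 heat shock genes stood at -0.24 with 0 called. Of 48 ribosomal protein genes tested in microglia 3 were called higher (Rpl3, Rpl13 and Rps18), of which Rps18 was not called without the cells shared by P301L replicate 3 and rTta replicate 3 (edgeR adjusted p = 0.10). Rpl13 was at 1115, 1081 and 1113 CPM in P301L, 365, 564, 476, 330 and 357 CPM in WT and 746, 605 and 752 CPM in rTta, without overlap between P301L and WT (1.45, SE 0.31, edgeR adjusted p = 0.0053).

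Serpina3n, an acute-phase protease inhibitor, was lower in rTta than in P301L and WT. In excitatory neurons it was at 72.8, 350 and 77.5 CPM in P301L, 78.0, 122, 125, 159 and 112 CPM in WT and 15.7, 29.8 and 17.1 CPM in rTta. P301L did not differ from WT by the test (log2 fold change 0.58, edgeR adjusted p = 0.70) and was higher than rTta (3.06, edgeR adjusted p = 0.0094; 0.00091 without the shared cells and 0.054 without rTta replicate 3).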
